A study of Craterostigma plantagineum with 12 samples.

Results

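Wall-associated receptor kinases, glycine-rich proteins and arabinogalactan proteins were followed through drying and rewetting of Craterostigma plantagineum leaves. They were taken from an assembled leaf transcriptome by the words of each contig's green-plant description, and descriptions that name RNA-binding were left out. Of 48045 contigs, 115 met this rule: 71 wall-associated kinase (WAK) contigs, 19 glycine-rich contigs and 25 arabinogalactan protein (AGP) contigs. The RNA-binding clause removed 20 further glycine-rich contigs. No contig fell in more than 1 class.

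Leaves of this resurrection plant can dry out almost completely and recover on rewetting. Vegetatively propagated plants were kept in incubators, and leaf RNA was sequenced in 4 states with 3 libraries each: fresh (relative water content, RWC, of 100%), partly dried to about 60% RWC over 3 to 4 days in pots, dried to 2% RWC over 15 days, and rehydrated, from dried plants held under water for 24 h. The leaves of 6 to 9 plants were pooled for a library, and no pool was used for a second one. Levels are given as RPKM, which are reads corrected for contig length and for library size, and summed class levels as CPM, which are reads corrected for library size alone. No watered plants of matching age are among the libraries, so water content and days without water cannot be told apart.

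Wall-associated kinases span the plasma membrane: the outer part binds pectin of the cell wall and the inner part is a protein kinase, and in Arabidopsis they are known for roles in cell expansion and in responses to pectin fragments. Glycine-rich proteins are a mixed group that shares a composition rather than a function, with secreted wall proteins beside nucleic acid-binding ones. In this species the glycine-rich protein CpGRP1 has been described as a wall protein that binds the kinase CpWAK1. Arabinogalactan proteins are wall and membrane-surface proteins that carry large arabinose- and galactose-rich sugar chains, and the fasciclin-like ones (FLA) also hold fasciclin domains, which are known for adhesion.

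Library totals ran from 14784251 to 21271288 reads. The 3 fresh libraries differed from each other more than those of the other states, with a biological coefficient of variation of 0.537, against 0.143 for the 60% RWC libraries, 0.135 for the 2% RWC ones and 0.266 for the rehydrated ones. The 28 contigs of a mesophyll list (chlorophyll a-b binding proteins and the Rubisco small subunit) summed to 17131 to 29742 CPM in fresh leaves, 3957 to 4470 CPM at 60% RWC, 2497 to 3716 CPM at 2% RWC and 12976 to 18865 CPM after rehydration, and none was without reads. Epidermis and cuticle contigs (201) summed to 2847 to 3875, 2608 to 2833, 1957 to 2473 and 2533 to 2729 CPM in the same order of states, vascular contigs (47) to 427 to 509, 302 to 342, 290 to 375 and 247 to 259 CPM, and root-described contigs (19) to 906 to 1350, 358 to 412, 327 to 360 and 356 to 413 CPM. At 2% RWC against fresh leaves, the test described below called 11 of 17 tested root-described contigs higher and 3 lower. Their median log2 fold was 0.71, so their falling sum does not show the course of most of them. Of all tested contigs, 26.0% were called higher there. The epidermis and cuticle sum also hides the course of most of its contigs. Of 185 tested, 116 were called lower and 11 higher at 60% RWC against fresh leaves (62.7% lower, beside 23.3% of all tested contigs). At 2% RWC 133 were called lower and 19 higher (71.9% lower, beside 34.9%), with a median log2 fold of -2.63. The 5 guard cell contigs summed to 5.64 to 11.8, 5.88 to 7.38, 2.68 to 3.18 and 17 to 20.0 CPM. These sums moved with the states, and their part in the results below was not tested. In such bulk samples, fewer cells of a type and less RNA per cell cannot be told apart.

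The class names rest on short contigs. Median contig length was 547 bases for WAKs (314 to 2082), 428 for glycine-rich contigs (306 to 1452) and 441 for AGPs (313 to 1527), and more than 1 contig may come from the same gene, so the counts below are of contigs. The deposited Arabidopsis annotation named a wall-associated kinase for 55 of 71 WAK contigs and a protein kinase superfamily member for 9. For 2 it named a transposable element and for 5 it gave nothing. Of the 19 glycine-rich contigs, 12 carried the Arabidopsis label DUF1399, a domain of unknown function, 3 that of a cold shock domain protein and 1 that of an Alba DNA/RNA-binding protein, so most of this class is not labelled there as wall protein. For AGPs, 18 of 25 carried an arabinogalactan label, 1 a pollen Ole e 1 and extensin label, and 6 had none.

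The classes took different courses. Summed WAK levels were 800 ± 425 CPM in fresh leaves, 184 ± 28.0 CPM at 60% RWC, 286 ± 32.1 CPM at 2% RWC and 389 ± 83.6 CPM after rehydration (mean ± SD, n = 3 libraries here and throughout). Summed AGP levels were 300 ± 29.2 CPM in fresh leaves, 32 ± 2.96 CPM at 60% RWC, 26.6 ± 3.31 CPM at 2% RWC and 307 ± 79 CPM after rehydration. Summed glycine-rich levels ran the other way, at 306 ± 94.1 CPM in fresh leaves, 710 ± 78.8 CPM at 60% RWC, 829 ± 39.1 CPM at 2% RWC and 340 ± 20.0 CPM after rehydration. This course was that of 1 contig, the CpGRP1-hit contig described below, which held 105 ± 29.5, 443 ± 80.4, 532 ± 30.6 and 47.7 ± 7.82 CPM of these sums in the same order of states. The other 18 glycine-rich contigs summed to 201 ± 79.9, 267 ± 9.64, 297 ± 9.66 and 293 ± 18.4 CPM, and their fresh libraries (182, 289 and 133 CPM) overlapped with those at 60% RWC. For the sums over whole classes, the libraries of dried leaves did not overlap with the fresh ones. Tested across the 4 states at once (edgeR's quasi-likelihood F test), 62 of 69 tested WAK contigs, 10 of 19 glycine-rich contigs and 23 of 23 tested AGP contigs were called, beside 71.6% of all tested contigs.

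**Figure D1:**
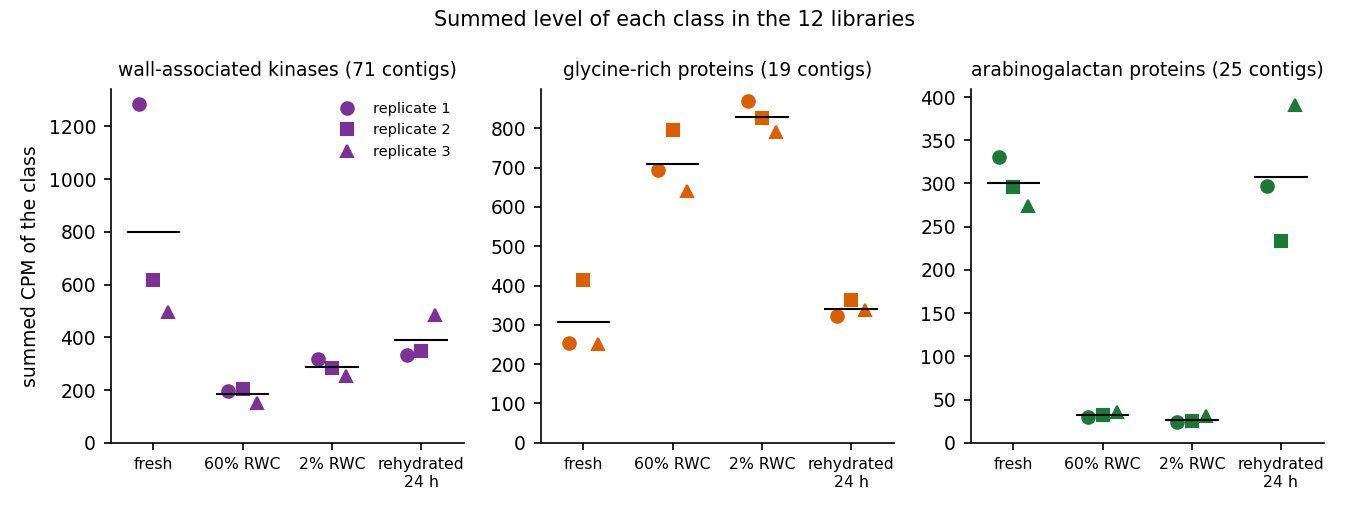
Summed CPM of the WAK, glycine-rich and AGP contigs in each of the 12 libraries, by state; points are libraries, with a symbol per replicate number, and bars are state means. WAK and AGP sums are low at 60% and 2% RWC, glycine-rich sums are high there, and fresh replicate 1 stands far above the other fresh libraries for WAKs (1285 CPM, against 619 and 496 CPM).

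Wall-associated kinases fell early in drying. At 60% RWC against fresh leaves, 46 of the 69 tested WAK contigs fell and 3 rose (edgeR's quasi-likelihood test, Benjamini-Hochberg adjusted p below 0.05 over all tested contigs), with a median log2 fold of -2.11. Over all 46494 tested contigs 23.3% fell and 15.6% rose, 38.9% in all, with a median of -0.06. At 2% RWC against fresh leaves, 46 fell and 6 rose with a median log2 fold of -2.05, where 34.9% of all tested contigs fell and 26.0% rose, 60.9% in all, with a median of -0.22. The 2 WAK contigs that the filter on low counts left out, Cp_V2_contig_29312 and Cp_V2_contig_27726, had 101 and 37 reads in all 12 libraries together. In fresh leaves replicate 1 was the highest of the 3 libraries for 55 of 69 WAK contigs (79.7%), while it was the highest for 23.9% of all tested contigs. Without that library, 40 WAK contigs fell and 3 rose at 60% RWC, and 39 fell and 8 rose at 2% RWC.

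The most abundant WAK contig shows this course and its spread. Cp_V2_contig_1210, described as wall-associated receptor kinase-like 8, had 215, 56.6 and 40.5 RPKM in fresh leaves, 6.74, 8.90 and 6.97 RPKM at 60% RWC, 6.05, 7.51 and 4.96 RPKM at 2% RWC, and 28.0, 27.4 and 60.2 RPKM after rehydration. Every dried library lay below every fresh and rehydrated one, while fresh and rehydrated libraries overlapped. It fell at 60% RWC against fresh leaves (log2 fold -3.76, SE 0.65, adjusted p = 0.00105) and at 2% RWC against fresh leaves (-3.92, SE 0.66, adjusted p = 0.000374), and rose in rehydrated against 2% RWC leaves (2.25, SE 0.62, adjusted p = 0.00959). Of the 23 contigs with the same description, 19 fell at 60% RWC against fresh leaves and 18 at 2% RWC against fresh leaves.

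For 15 WAK contigs the best hit was a kinase already named in this species. The 10 with the best hit CpWAK1, the partner of CpGRP1, all fell at 60% RWC against fresh leaves, and 7 of them fell at 2% RWC. Their summed level was 351, 138 and 90.4 CPM in fresh leaves, 37.8, 34.5 and 17.8 CPM at 60% RWC, 80.0, 66.4 and 50.0 CPM at 2% RWC and 71.7, 76.7 and 103 CPM after rehydration. The sums at 2% RWC lay above those at 60% RWC in every library and overlapped with the rehydrated ones. At 2% against 60% RWC, only 1 of the 10 was called higher, and 1 was called lower. The higher one, Cp_V2_contig_19851, had 22.5, 17.2 and 10.9 RPKM at 2% RWC, against 3.05, 1.99 and 2.54 RPKM at 60% RWC (log2 fold 2.84, SE 0.70, adjusted p = 0.0069). Cp_V2_contig_6586, the longest of the 10 and the one with the most reads (10230), was not called there (1.22, SE 0.59, adjusted p = 0.112). It had 12.3, 11.2 and 4.32 RPKM at 60% RWC, against 94.3, 34.9 and 16 RPKM in fresh leaves (-2.33, SE 0.61, adjusted p = 0.0108), a call that was lost when only these 2 states were fitted. The call of Cp_V2_contig_19851 at 60% RWC against fresh leaves was lost in that fit too, and without fresh replicate 1 or any of the 3 libraries at 60% RWC.

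The 5 contigs with the best hit CpWAK2 fell at 60% RWC as well, and 4 of them fell at 2% RWC, both against fresh leaves. Their sums at 2% RWC (8.98, 8.09 and 9.60 CPM) overlapped with those at 60% RWC (10.2, 10.9 and 9.07 CPM), and fresh leaves had 73.7, 42.0 and 47.6 CPM. These sums join unlike courses. At 2% against 60% RWC 2 of the 5 were called lower and 0 higher. Cp_V2_contig_23497 had 18.3, 14.3 and 15.1 RPKM at 2% RWC, against 8.53, 8.77 and 6.27 RPKM at 60% RWC, and was not called (log2 fold 1.12, SE 0.45). Cp_V2_contig_7782 had 1.18, 1.51 and 1.45 RPKM at 2% RWC, against 44.1, 25.2 and 32.3 RPKM in fresh leaves (log2 fold -4.42, SE 0.34, adjusted p = 1.41e-06). It was at 10.9, 9.43 and 5.95 RPKM after rehydration, above every dried library and below every fresh one. This contig rose in rehydrated against 2% RWC leaves (2.26, SE 0.32) and stayed lower in rehydrated than in fresh leaves (-2.16, SE 0.30, adjusted p = 0.00153).

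The deepest falls among the better measured WAKs were in contigs described as WAK 5-like and WAK 2. Cp_V2_contig_2976, described as WAK 5-like, had 0.0554, 0.378 and 0.0680 RPKM at 2% RWC, against 48.8, 5.96 and 9.73 RPKM in fresh leaves (log2 fold -6.72, SE 1.10, adjusted p = 0.000316). Cp_V2_contig_7425, described as WAK 2-like, had 0.223, 0.191 and 0.274 RPKM at 2% RWC, against 43.9, 5.23 and 7.34 RPKM in fresh leaves (-6.22, SE 1.02). In both, fresh replicate 1 was over the other fresh libraries by far, and the groups did not overlap. Cp_V2_contig_7399, described as WAK 2, fell to a similar level at both stages: 2.03, 2.28 and 1.14 RPKM at 60% RWC, 1.77, 2.02 and 2.09 RPKM at 2% RWC, against 63.7, 30.7 and 47.1 RPKM in fresh leaves.

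The WAK 5 descriptions were split. Of their 9 contigs, 6 fell at 60% RWC against fresh leaves (66.7%, beside 23.3% of all tested contigs). At 2% RWC against fresh leaves 4 rose (44.4%, beside 26.0%) and 3 fell (33.3%, beside 34.9%). With 9 contigs, this split is not far from the mix over all tested contigs. The 4 that rose, Cp_V2_contig_31278, Cp_V2_contig_27251, Cp_V2_contig_15884 and Cp_V2_contig_36641, were singled out after their values were seen. Cp_V2_contig_15884 had 4.01, 2.51 and 5.05 RPKM in fresh leaves, 2.37, 1.63 and 1.96 RPKM at 60% RWC, 12.7, 10.2 and 12.3 RPKM at 2% RWC, and 2.62, 4.64 and 5.33 RPKM after rehydration. Its 2% RWC libraries lay above all other libraries, and it rose at 2% RWC against fresh leaves (log2 fold 1.80, SE 0.34, adjusted p = 0.000864). It fell in rehydrated against 2% RWC leaves (-1.87, SE 0.34, adjusted p = 0.00072). Cp_V2_contig_31278 had 11.8, 12.4 and 11.9 RPKM at 2% RWC, against 5.83, 3.77 and 7.04 RPKM in fresh leaves (1.32, SE 0.30). Cp_V2_contig_36641 (1.67, SE 0.31) and Cp_V2_contig_27251 (0.92, SE 0.35) also rose, and all 4 rose at 2% against 60% RWC, with log2 folds from 2.36 to 2.66.

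Between 60% and 2% RWC the counts of WAK contigs called were near the background. At 2% against 60% RWC, 13 of 69 contigs rose and 15 fell, with a median log2 fold of 0.07, where 19.5% of all tested contigs rose and 25.0% fell, 44.5% in all, with a median of -0.13. The balance of the calls depends on the fit, with 20 higher and 13 lower when only these 2 states were fitted, and 8 higher and 12 lower without 60% RWC replicate 1. Among those that fell further was Cp_V2_contig_12223, described as WAK 2-like, with 1.33, 2.69 and 1.93 RPKM at 2% RWC, against 8.37, 8.62 and 9.17 RPKM at 60% RWC (log2 fold -2.0, SE 0.46). Cp_V2_contig_8609, described as WAK 5-like, had 3.60, 4.27 and 2.13 RPKM at 2% RWC, against 10.4, 15.9 and 9.59 RPKM at 60% RWC (-1.72, SE 0.46). A contig of the WAK-like 14 descriptions, Cp_V2_contig_8656, rose with 4.86, 4.63 and 2.83 RPKM at 2% RWC, against 1.56, 1.94 and 1.68 RPKM at 60% RWC (1.36, SE 0.46), a call that was lost without any of the 3 libraries at 60% RWC or without replicate 1 or 2 at 2% RWC.

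Contigs that rose at 60% RWC against fresh leaves were few and low. Cp_V2_contig_47910, described as WAK 2-like, had 2.84, 2.82 and 3.38 RPKM at 60% RWC, against 0, 0.301 and 0.343 RPKM in fresh leaves, and 0.559, 0.119 and 0 RPKM at 2% RWC. Cp_V2_contig_42120, described as WAK-like 14, had 5.92, 5.36 and 4.30 RPKM at 60% RWC, against 3.25, 2.13 and 2.43 RPKM in fresh leaves (log2 fold 1.08, SE 0.36, adjusted p = 0.0317). The first of these was raised at 60% RWC only and overlapped between 2% RWC and fresh leaves. Both were singled out after their values were seen.

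The third, Cp_V2_contig_47837, stands apart from the kinases in its annotation. Its description reads WAK 2-like protein, while the Arabidopsis annotation names a retroelement polyprotein and the best hit is a hypothetical protein of grapevine. It had 0 reads in all 3 fresh libraries, 0.914, 0.569 and 1.18 RPKM at 60% RWC, 45.6, 41.4 and 36.4 RPKM at 2% RWC, and 0.827, 0.489 and 0.945 RPKM after rehydration. With 3 reads per library as the floor, it was at least 205-fold higher at 2% RWC than in fresh leaves and at least 4.43-fold higher at 60% RWC than in fresh leaves. After rehydration it was at least 3.76-fold higher than in fresh leaves. It is the only WAK contig called higher in rehydrated than in fresh leaves. Neither it nor Cp_V2_contig_19935, whose Arabidopsis annotation names a transposase, counts among the contigs with a kinase annotation.

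**Figure D2:**
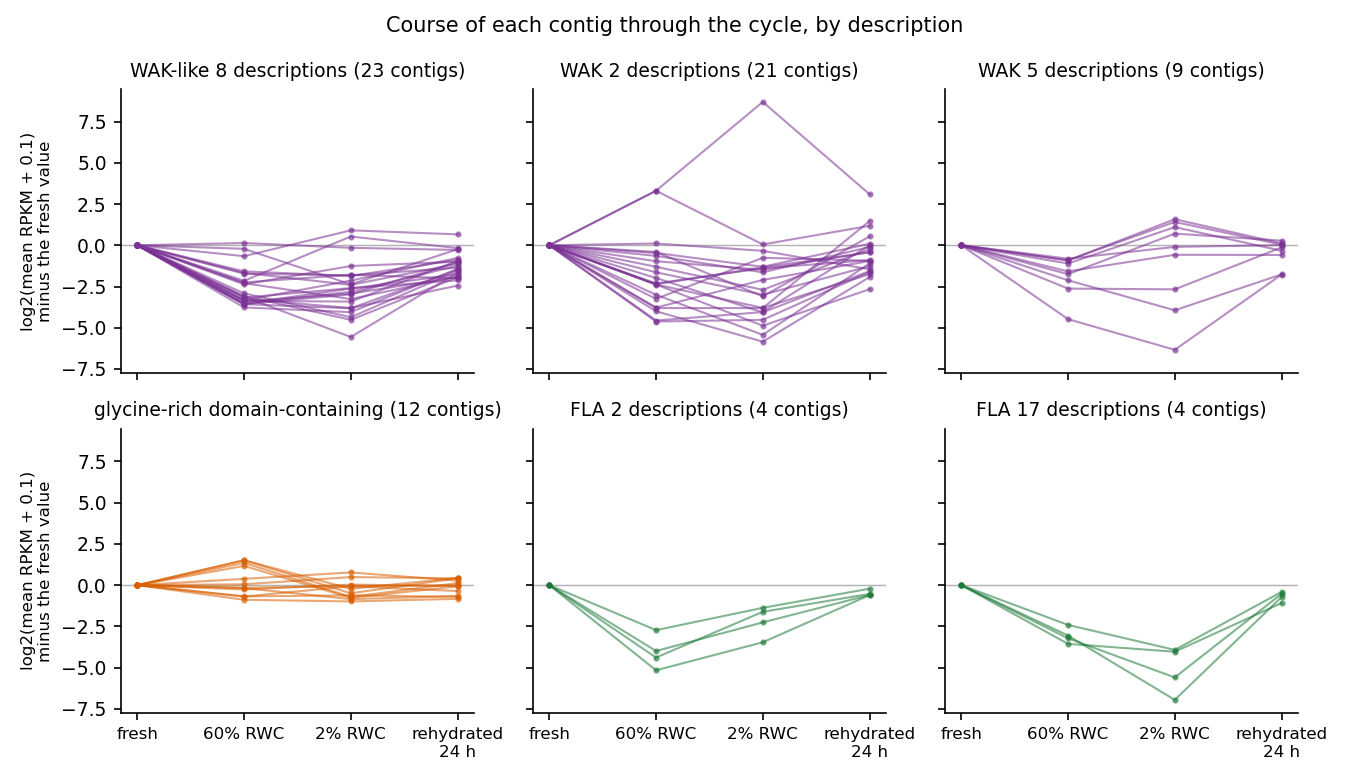
Course of each contig through the 4 states, as log2(mean RPKM + 0.1) minus its fresh value, in 6 groups of equal description; each line is a contig. Most WAK-like 8 and WAK 2 lines lie below their fresh value at 60% and 2% RWC, the WAK 5 lines split at 2% RWC, FLA 2 lines rise between 60% and 2% RWC, and FLA 17 lines fall further there.

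Rewetting raised part of the WAK class, a share not far above that of all tested contigs. In rehydrated against 2% RWC leaves, 27 of 69 contigs rose (39.1%) and 8 fell (11.6%), 50.7% in all, with a median log2 fold of 0.97. Of all tested contigs, 31.1% rose and 25.4% fell, 56.5% in all, with a median of 0.13. The comparisons of 60% RWC with fresh leaves and of rehydrated with 2% RWC leaves share no library. Of WAK contigs, 20 fell in the first and rose in the second, which is 43.5% of the 46 that fell and 74.1% of the 27 that rose, while for all tested contigs these shares were 65.2% and 48.9%. Cp_V2_contig_10267, a long contig described as WAK-like 20, had 9.26, 11.4 and 27.9 RPKM in rehydrated leaves, against 23.1, 23.8 and 21.9 RPKM at 2% RWC. Its rehydrated libraries lay on both sides of the 2% RWC ones, and its call as lower (log2 fold -0.89, SE 0.34, adjusted p = 0.0446) was lost when only these 2 states were fitted and on leaving out any library of these 2 states other than rehydrated replicate 3.

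WAK levels in rehydrated leaves tended to lie under those of fresh leaves, but the calls depend on the fit. In rehydrated against fresh leaves, 17 of 69 contigs were called lower and 1 higher, with a median log2 fold of -1.18, where 5.69% of all tested contigs were lower and 3.71% higher, 9.41% in all, with a median of -0.06. In a fit of these 2 states alone, edgeR called 0 of 67 WAK contigs and 0.843% of all contigs, with 31 WAK contigs lower and 0 higher at an unadjusted p below 0.05. The DESeq2 Wald test on all 12 libraries called 29 lower and 1 higher, and limma's voom 10 lower and 0 higher. Leaving out fresh replicate 1, the library with the highest WAK levels, gave 12 lower, fresh replicate 2 30 lower and fresh replicate 3 29 lower. Leaving out rehydrated replicate 1 gave 9 lower, replicate 2 4 lower and replicate 3 13 lower. Each of these fits had 1 higher. At an unadjusted p below 0.05, 22 were lower without fresh replicate 1, against 36 with all 12 libraries. By mean RPKM, 51 of 71 WAK contigs had their highest level in fresh leaves, 5 in the 60% RWC state, 10 in the 2% RWC state and 5 in rehydrated leaves, while 25.9% of all tested contigs had theirs in fresh leaves. For 23 of the 51 the fresh libraries did not overlap with any other state, and the fresh means include replicate 1, the library with the highest WAK levels.

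The glycine-rich class was led by a single contig. Cp_V2_contig_13429, whose best hit is the species' own glycine-rich protein 1 (CpGRP1), had 104, 183 and 172 RPKM in fresh leaves, 640, 771 and 536 RPKM at 60% RWC, 821, 783 and 732 RPKM at 2% RWC, and 58.3, 69.9 and 81.2 RPKM after rehydration. The dried libraries lay above all others, and the rehydrated ones lay below every fresh one. It rose at 60% RWC against fresh leaves (log2 fold 2.21, SE 0.22, adjusted p = 1.96e-05) and at 2% RWC against fresh leaves (2.59, SE 0.22, adjusted p = 3.02e-06). Between 2% and 60% RWC its libraries overlapped (0.38, SE 0.21, adjusted p = 0.168). It fell in rehydrated against 2% RWC leaves (-3.87, SE 0.24, adjusted p = 5.81e-07), and was lower in rehydrated than in fresh leaves (-1.28, SE 0.21, adjusted p = 0.00473), a call that was lost when only these 2 states were fitted. CpGRP1-hit and CpWAK1-hit contigs thus ran in opposite directions between 60% RWC and fresh leaves.

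Over the class, 6 of 19 glycine-rich contigs rose and 0 fell at 60% RWC against fresh leaves (7 rose and 0 fell at an unadjusted p below 0.05, and DESeq2 called 7 and 0), with a median log2 fold of 0.36. At 2% RWC against fresh leaves, 5 rose and 0 fell, in edgeR at an adjusted and at an unadjusted p and in DESeq2, with a median of 0.01. These shares, 31.6% and 26.3% rising, lie beside 15.6% and 26.0% of all tested contigs, so the second is at the background. The absence of falling contigs depends on the fresh libraries: without fresh replicate 3, 6 rose and 3 fell at 60% RWC and 4 rose and 3 fell at 2% RWC, and without fresh replicate 2, 1 contig fell in each comparison. Cp_V2_contig_11266, the contig that Arabidopsis annotation also calls a glycine-rich protein, had 72.2, 75.4 and 80.8 RPKM at 60% RWC and 100, 97.5 and 95.4 RPKM at 2% RWC, against 35.5, 68.1 and 25.0 RPKM in fresh leaves. It rose in both comparisons (log2 folds 0.97 and 1.44, SE 0.26 each). The first of these calls was lost in a fit of 60% RWC and fresh leaves alone. Cp_V2_contig_31578, described as a glycine-rich protein, had 17.4, 15.9 and 15.8 RPKM at 60% RWC and 13.2, 11.6 and 11.9 RPKM at 2% RWC, against 7.12, 9.25 and 10.3 RPKM in fresh leaves (0.99 and 0.68, SE 0.17 each).

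Contigs described as glycine-rich protein 2-like carried the cold shock domain label, a fold that binds nucleic acids, and their changes were small. Cp_V2_contig_1997 had 250, 241 and 243 RPKM at 2% RWC, against 127, 218 and 116 RPKM in fresh leaves (log2 fold 0.92, SE 0.19, adjusted p = 0.00131). The others, Cp_V2_contig_30743 and Cp_V2_contig_14594, were not called at 60% or 2% RWC against fresh leaves. Cp_V2_contig_14594 had 53.7, 55.8 and 32.7 RPKM in rehydrated leaves, against 21.6, 17.1 and 17.5 RPKM at 2% RWC (0.95, SE 0.27, adjusted p = 0.0109). In the same comparison Cp_V2_contig_30743 was also called higher (0.67, SE 0.27, adjusted p = 0.0492) and Cp_V2_contig_1997 lower (-0.58, SE 0.19, adjusted p = 0.0189), and both calls were lost without rehydrated replicate 3, that of Cp_V2_contig_30743 in 8 of the 12 fits without a library. Cp_V2_contig_2802 has the description of a glycine-rich cell wall structural protein, but its best hit is an RNA helicase and its Arabidopsis label is Alba. It had 26.3, 28.0 and 12.7 RPKM in rehydrated leaves, against 6.12, 7.53 and 5.2 RPKM at 2% RWC (1.43, SE 0.37, adjusted p = 0.00613).

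The 12 glycine-rich domain-containing contigs, which carry the DUF1399 label, included contigs with their highest levels at 60% RWC. Of the 12, 3 rose at 60% RWC against fresh leaves, and 4 fell at 2% against 60% RWC: Cp_V2_contig_36436, Cp_V2_contig_46579, Cp_V2_contig_35746 and Cp_V2_contig_45632, named after their values were seen. These shares of 25.0% rising and 33.3% falling lie near the 15.6% and 25.0% of all tested contigs. Cp_V2_contig_36436 had 4.93, 7.94 and 4.28 RPKM in fresh leaves, 12.8, 17.3 and 14.4 RPKM at 60% RWC, 3.59, 3.15 and 3.65 RPKM at 2% RWC, and 5.44, 6.82 and 6.47 RPKM after rehydration. Its 60% RWC libraries lay above all others, and it fell at 2% against 60% RWC (log2 fold -1.98, SE 0.24, adjusted p = 7.45e-05). The other 3 fell by 1.65 to 1.96 on the log2 scale.

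Over the 19 contigs, 1 rose and 4 fell at 2% against 60% RWC with a median log2 fold of 0.00, which is 26.3% called beside 44.5% of all tested contigs. Limma's voom called 4 higher and 7 lower there, and edgeR on these 2 states alone 6 higher and 6 lower. In rehydrated against 2% RWC leaves 3 rose and 4 fell with a median of -0.31, which is 36.8% called beside 56.5% of all tested contigs, and without rehydrated replicate 3 the calls numbered 4. In rehydrated against fresh leaves 1, the CpGRP1-hit contig, was lower and 0 were higher with a median of 0.02 (3 higher at an unadjusted p below 0.05, and DESeq2 called 0 higher). The direction of these calls depends on the fresh libraries: 3 were higher and 1 lower without fresh replicate 2, and 0 higher and 4 lower without fresh replicate 3. Fresh replicate 2 was the highest fresh library for 15 of the 19 contigs, and fresh replicate 3 the lowest for 13.

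**Figure D3:**
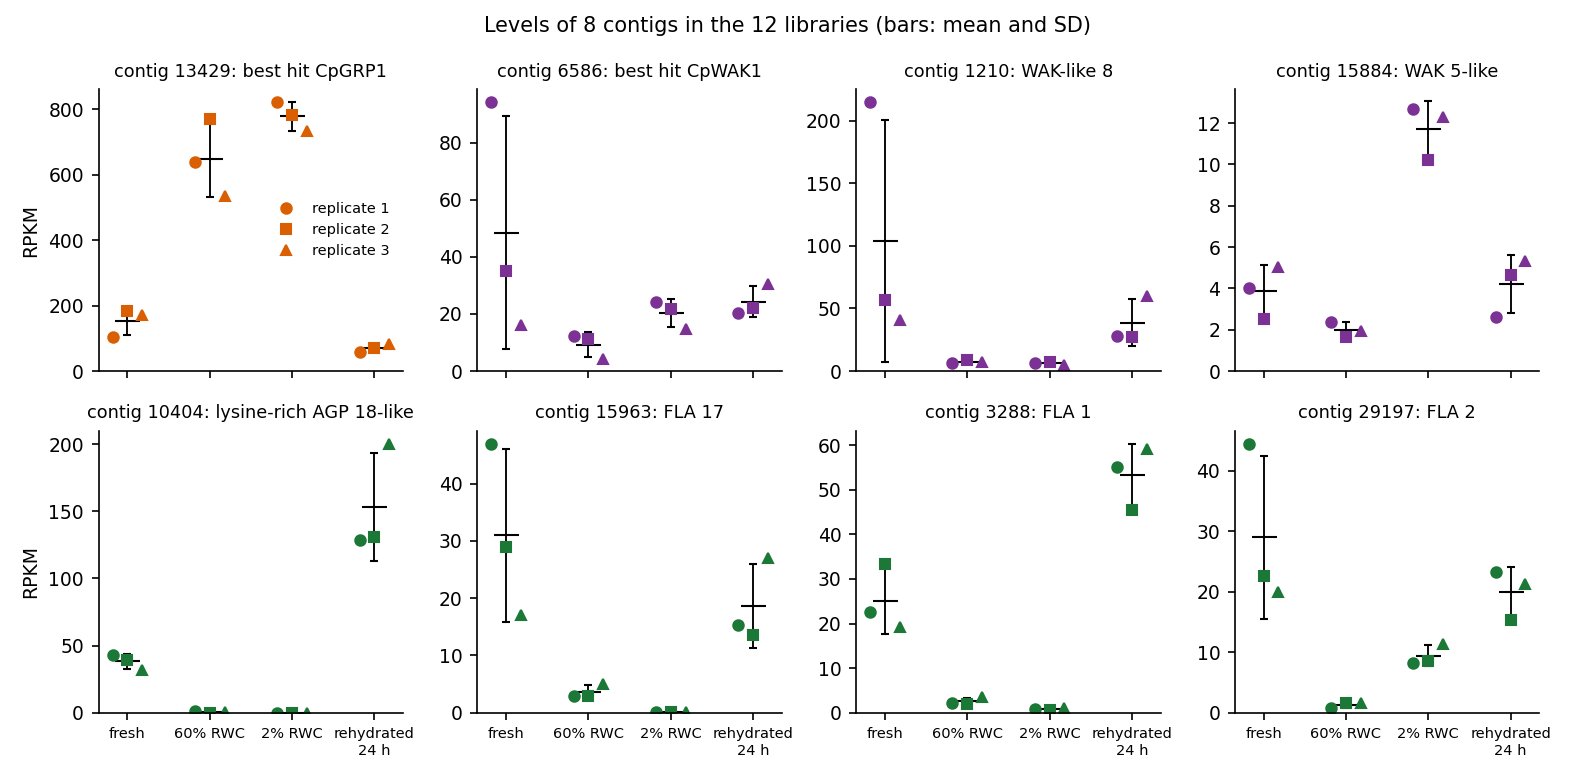
RPKM of 8 contigs in each of the 12 libraries, 1 panel per contig with its own axis; points are libraries, bars are mean and SD over 3 libraries. The CpGRP1-hit contig is high in both dried states, the WAK 5-like contig at 2% RWC alone, and the AGP contigs are low in both dried states, with FLA 2 partly raised at 2% RWC.

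Arabinogalactan proteins fell in nearly every tested contig. At 60% RWC against fresh leaves 22 of 23 tested AGP contigs fell and 0 rose, with a median log2 fold of -3.15, and at 2% RWC against fresh leaves 23 of 23 fell and 0 rose, with a median of -3.67. EdgeR counts at an unadjusted p below 0.05 were the same, and DESeq2 also called 22 and 23 lower and 0 higher. These shares of 95.7% and 100% lie beside 23.3% and 34.9% of all tested contigs. The contig not called at 60% RWC was Cp_V2_contig_36568, described as FLA 8, with 2.61, 1.07 and 2.68 RPKM at 60% RWC, against 2.28, 3.04 and 1.10 RPKM in fresh leaves. Of the 2 untested AGP contigs, Cp_V2_contig_47882, described as non-classical AGP 31-like but labelled Ole e 1 and extensin in Arabidopsis, had 25 reads at 60% RWC, 15 at 2% RWC and 0 in fresh and rehydrated leaves. Without the filter on low counts it was called higher in both dried states than in fresh leaves, so the count of 0 rising holds for the tested contigs only. Cp_V2_contig_46501, described as classical AGP 4-like, had 32 reads in all.

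The lysine-rich AGPs are a small subclass with a lysine-rich stretch in the backbone. A contig of this subclass had no reads at 2% RWC, and another stayed low after rehydration. Cp_V2_contig_10404, described as lysine-rich AGP 18-like, had 43.2, 39.5 and 32.1 RPKM in fresh leaves, 1.27, 0 and 0.549 RPKM at 60% RWC, 0 reads in all 3 libraries at 2% RWC, and 129, 131 and 200 RPKM after rehydration. It was at least 99.4-fold lower at 2% RWC than in fresh leaves and at least 398-fold higher in rehydrated than in 2% RWC leaves. Every rehydrated library lay above every fresh one (log2 fold 1.83, SE 0.45, adjusted p = 0.0368), but this last call was lost in a fit of the 2 states alone and without any of the 3 rehydrated libraries, fresh replicate 3, 60% RWC replicate 3 or 2% RWC replicate 1 or 2. Cp_V2_contig_23487, described as lysine-rich AGP 19, had 0.473, 0.706 and 1.16 RPKM at 2% RWC, against 25.8, 17.2 and 18 RPKM in fresh leaves. After rehydration it was at 1.13, 0 and 0.870 RPKM, below all fresh libraries and overlapping with the dried ones, which ran from 0.473 to 4.35 RPKM (rehydrated against fresh, log2 fold -5.05, SE 0.78, adjusted p = 0.00323). It was named after its values were seen.

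Of the fasciclin-like AGPs, 19 of 20 fell at 60% RWC and 20 of 20 at 2% RWC, both against fresh leaves, and groups with the same description then parted between 60% and 2% RWC. The 4 FLA 2 contigs summed to 91.1, 60.6 and 54.2 CPM in fresh leaves, 4.14, 4.31 and 5.81 CPM at 60% RWC, 14.6, 15.0 and 20.1 CPM at 2% RWC, and 52.9, 34.1 and 58.4 CPM after rehydration. The 4 FLA 17 contigs summed to 109, 89.5 and 71.9 CPM in fresh leaves, 9.68, 10.9 and 13.4 CPM at 60% RWC, 1.54, 1.36 and 2.37 CPM at 2% RWC, and 54.0, 41.7 and 81.3 CPM after rehydration. At 2% against 60% RWC all 4 FLA 2 contigs rose, while 3 of 4 FLA 17 contigs fell. Whether these descriptions differ as groups was not tested.

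Single contigs show the same parting. Cp_V2_contig_29197, described as FLA 2, had 8.26, 8.54 and 11.4 RPKM at 2% RWC, against 0.737, 1.55 and 1.59 RPKM at 60% RWC (log2 fold 2.97, SE 0.45, adjusted p = 0.000371). Its fresh libraries had 44.4, 22.6 and 19.9 RPKM, above all dried ones. Cp_V2_contig_15963, a long contig described as FLA 17, had 0.108, 0.123 and 0.221 RPKM at 2% RWC, against 2.86, 3.00 and 5.07 RPKM at 60% RWC (-4.48, SE 0.57, adjusted p = 0.000125). It had 15.3, 13.6 and 27.1 RPKM in rehydrated leaves, against 46.9, 29.0 and 17 RPKM in fresh leaves, and these overlap. Over the class, 4 of 23 contigs rose and 8 fell at 2% against 60% RWC, with a median log2 fold of -0.81, and the 4 that rose were the FLA 2 contigs. These shares, 17.4% rising and 34.8% falling, lie near the 19.5% and 25.0% of all tested contigs.

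The 4 contigs described as FLA 7 or FLA 9 summed to 0.728, 0.719 and 1.51 CPM at 60% RWC and 0.771, 0.893 and 0.609 CPM at 2% RWC, against 19.8, 25.8 and 29.3 CPM in fresh leaves, and all 4 fell in both comparisons. Cp_V2_contig_31626, described as FLA 7, had 0 reads at 2% RWC, against 23.3, 25.8 and 13.9 RPKM in fresh leaves, and 26.3, 18 and 43.6 RPKM after rehydration. It was at least 47.7-fold lower at 2% RWC than in fresh leaves and at least 66.5-fold higher in rehydrated than in 2% RWC leaves. Cp_V2_contig_41129, also described as FLA 7, had 0 reads at 2% RWC too and was at least 13.7-fold lower there than in fresh leaves. Cp_V2_contig_31626 and Cp_V2_contig_41129 were named after their values were seen. The 3 contigs described as FLA 4, whose Arabidopsis namesake is known for root growth under salt, all fell at 60% and at 2% RWC against fresh leaves and all rose in rehydrated against 2% RWC leaves.

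Rewetting brought most AGP contigs back. In rehydrated against 2% RWC leaves 20 of 23 rose and 0 fell (21 and 0 at an unadjusted p below 0.05, and DESeq2 called 20 and 0), with a median log2 fold of 3.14, where 31.1% of all tested contigs rose. All 20 had also fallen at 60% RWC against fresh leaves, which is 90.9% of the 22 that fell and 100% of the 20 that rose. For all tested contigs these shares were 65.2% and 48.9%. Because 22 of the 23 AGP contigs fell and 20 of the 23 rose, nearly all of this overlap was fixed by these counts. It adds little to them. Rehydrated replicate 2 was the lowest rehydrated library for 22 of 23 AGP contigs (95.7%) and for 26.2% of all tested contigs, and replicate 3 was the highest for 18 of 23. The 3 that were not called as rising were Cp_V2_contig_23487, Cp_V2_contig_36568 and Cp_V2_contig_29197, the FLA 2 contig that had already risen at 2% RWC.

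In rehydrated against fresh leaves 3 AGP contigs were called higher and 2 lower, with a median log2 fold of -0.39, where 3.71% and 5.69% of all tested contigs were. The higher ones were Cp_V2_contig_10404, Cp_V2_contig_3288 and Cp_V2_contig_36912. Cp_V2_contig_3288, described as FLA 1, had 55.1, 45.5 and 59.1 RPKM in rehydrated leaves, against 22.5, 33.3 and 19.3 RPKM in fresh leaves (log2 fold 0.94, SE 0.25, adjusted p = 0.0402). Cp_V2_contig_36912, described as FLA 9, had 15.0, 11.2 and 29.2 RPKM in rehydrated leaves, against 3.79, 1.79 and 5.30 RPKM in fresh leaves (2.16, SE 0.54). It was named after its values were seen. Beside Cp_V2_contig_23487, the lower one was Cp_V2_contig_8073, described as FLA 21, with 7.34, 4.44 and 10.9 RPKM in rehydrated leaves, against 26.4, 26.1 and 41.5 RPKM in fresh leaves (-2.22, SE 0.36, adjusted p = 0.00438). In a fit of these 2 states alone edgeR called 0 of 23, with 3 higher and 2 lower at an unadjusted p below 0.05, while DESeq2 on all libraries called 3 higher and 2 lower. Leaving out rehydrated replicate 1, 2 or 3 gave 2 to 3 calls in all, and 3 calls were made without fresh replicate 3, 60% RWC replicate 1 or 2% RWC replicate 1. The call of Cp_V2_contig_3288 was lost under voom and in 8 of the 12 fits without a library.

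**Figure D4:**
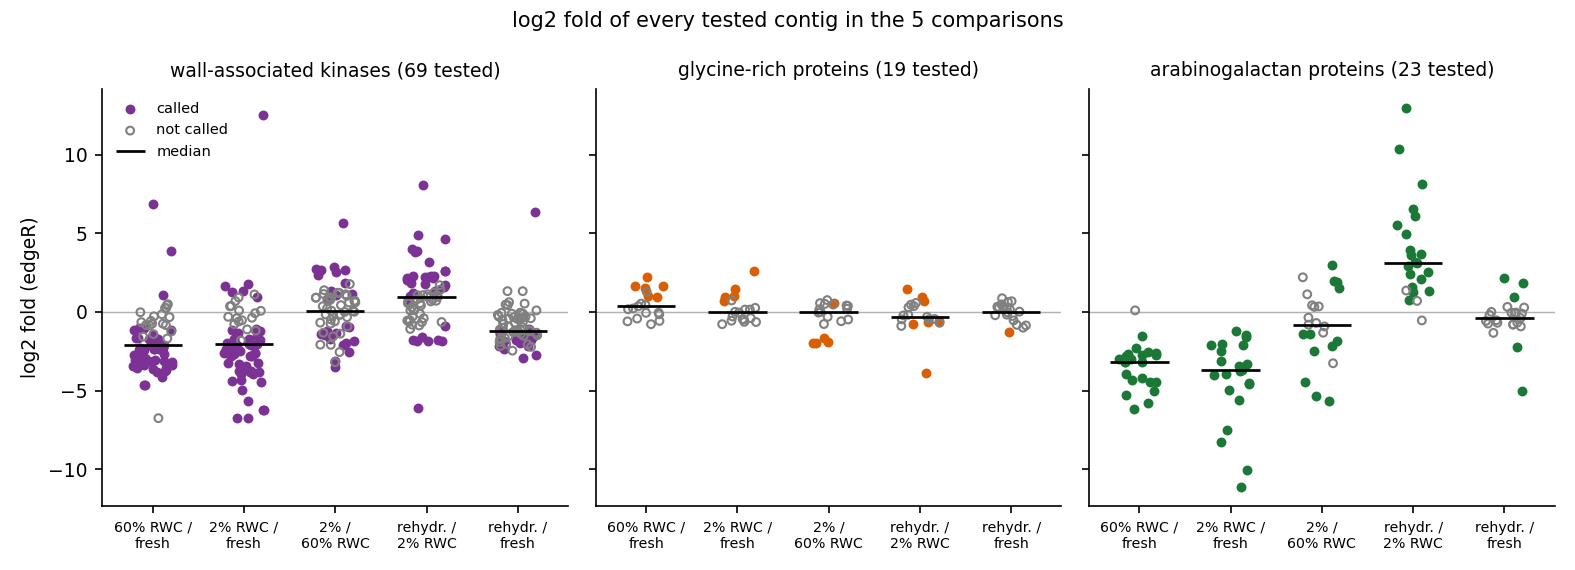
Log2 fold of every tested contig of the 3 classes in the 5 comparisons, each state named first over the one named second; filled points were called at an adjusted p below 0.05, open points were not, and bars are class medians. The AGP medians against fresh leaves (-3.15 at 60% RWC and -3.67 at 2% RWC) lie below the WAK medians (-2.11 and -2.05), and the glycine-rich medians (0.36 and 0.01) lie near 0 with single contigs on both sides; folds beyond 10 in size involve a state with no reads and depend on the prior count.

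Other genes of the same wall pathways were read from lists of description words. Receptor kinases of the FERONIA, THESEUS and HERK family, which bind pectin or peptide signals at the wall, had 28 tested contigs. Against fresh leaves, 1 rose and 17 fell (60.7%) at 60% RWC and 7 rose and 16 fell (57.1%) at 2% RWC, beside 23.3% and 34.9% of all tested contigs falling. At 2% against 60% RWC 17 rose (60.7%, beside 19.5%), in rehydrated against 2% RWC leaves 9 rose and 7 fell (57.1% called, beside 56.5%), and in rehydrated against fresh leaves 1 was higher and 11 were lower (39.3%, beside 5.69%). RALF peptides, ligands of that receptor family, had 7 contigs. Against fresh leaves, 1 rose and 3 fell (42.9%, beside 23.3% of all tested contigs) at 60% RWC. At 2% RWC 1 rose and 6 fell (85.7%, beside 34.9%), while 6 rose (85.7%, beside 31.1%) and 1 fell on rewetting. Pectin-modifying and pectin-making enzymes, which shape the pectin that WAKs bind, had 170 tested contigs: 16 rose and 79 fell (46.5%) at 60% RWC, 24 rose and 106 fell (62.4%) at 2% RWC, and 91 rose (53.5%, beside 31.1% of all tested contigs) and 24 fell in rehydrated against 2% RWC leaves. Extensins and proline-rich wall proteins (55 tested) had 5 rising and 22 falling (40.0%, beside 23.3% of all tested contigs) at 60% RWC. At 2% RWC 7 rose and 28 fell (50.9%, beside 34.9%), and on rewetting 30 rose (54.5%, beside 31.1%) and 8 fell. The list for hydroxylation and glycosylation of AGP backbones had 64 tested contigs, but its words are not limited to enzymes specific to AGPs. Of these contigs 5 rose and 11 fell at 60% RWC, with a median log2 fold of -0.21. At 2% RWC 10 rose and 25 fell, with a median of -0.54. Their shares falling, 17.2% and 39.1%, lie under and near the 23.3% and 34.9% of all tested contigs.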

How the data were processed

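Per the labels' protocols, total leaf RNA was made into stranded libraries and read as 75 bp paired ends, and each library came from a separate leaf pool, so p-values measure the spread between pools. This spread was estimated over all states together, although fresh libraries differed most from each other. At 2% against 60% RWC 44.5% of all tested contigs were called, and 65.3% when only these 2 states were fitted. For rehydrated against fresh leaves these shares were 9.41% and 0.843%. For the aligner, counter, strand setting and assembly, nothing more was given in the sources used here. Samples after 48 h of rehydration were not used here. The authors deposited whole-number counts of total gene reads and of unique gene reads per contig (98.52 to 98.71% of total reads were unique), RPKM made from the total reads, and contig length in bases; recomputed RPKM matched within a relative 1.56e-08. Descriptions, best hits and Arabidopsis labels are the deposited annotation. Without strand information, reads of overlapping or antisense transcripts cannot be told apart.

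All 12 libraries were fitted in R 4.3.3 with edgeR 4.0.16 on total gene reads: TMM scaling, with factors of 0.863 to 1.186, a low-count filter (filterByExpr with the state as group, at a count of 10 and a total of 15, which kept 46494 of 48045 contigs), robust quasi-likelihood F tests, and Benjamini-Hochberg adjustment over all tested contigs, called below 0.05, two-sided. Rose, fell, higher and lower are used of calls. The SE is the absolute log2 fold over the square root of F. The model was tested on simulated counts. Alternatives were DESeq2 1.42.0 size factors and Wald test, limma 3.58.1 voom with weights per state, no filter, unique reads, 2 states only, a replicate block and leaving out each library. Bounds use unscaled CPM with 3 counts per library (0.141 to 0.203 CPM) as the floor and cover counting error only.

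Named contigs were, per class, the 5 with the highest mean RPKM and up to 5 with the species or a cell wall structural protein in description or best hit. The rule also took the 3 highest and 3 lowest called folds of each comparison among contigs above the median level. Others are said to be named after their values were seen, or were named to account for contigs untested, not called or labelled as transposable elements. Members and lists were chosen with earlier results of these data known. No contig sequence is printed because none was among the sources used here.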

Additional observations from a re-analysis of the deposited data

How the results depend on the processing

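The counts of called contigs kept within 1.5 times of those reported under the other scaling, without the low-count filter, on unique reads and, for WAKs, without the 2 contigs labelled as transposable elements (chosen after seeing the data). The comparison of rehydrated with fresh leaves is the weak one, and the cause was not tested. There WAK calls went to 30 under the DESeq2 Wald test, 10 under voom and 0 with 2 states only, glycine-rich calls to 0 with 2 states only, and AGP calls to 3 under voom, 0 with 2 states only and 3 with the replicate block, against 18, 1 and 5 reported. Glycine-rich calls at 2% against 60% RWC were 11 under voom and 12 with 2 states only, against 5. Leaving out 1 library gave 5 to 31 WAK, 1 to 4 glycine-rich and 2 to 6 AGP calls for rehydrated against fresh leaves, and 4 to 8 glycine-rich calls for rehydrated against 2% RWC leaves. For the other comparisons these ranges were 43 to 55, 46 to 53, 20 to 36 and 28 to 43 for WAKs in the order of the report, 5 to 9, 4 to 7 and 4 to 7 for glycine-rich contigs, and 21 to 22, 23 to 23, 10 to 14 and 17 to 21 for AGPs. The labels name no pairing of pools across states. Deviations of libraries with the same replicate number correlated from -0.151 to 0.253, and were not set against those of libraries with unlike numbers. With the replicate block, 100 of 107 calls of named contigs held, and no named contig reversed its direction under any alternative. Contigs with under about 10 reads per library, among them the 4 untested ones, are limited by depth.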
